A study of Mus musculus with 16 samples.

Results

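The genes examined were the subunits of the hypoxia-inducible factor (HIF) and the proteins that sense oxygen for it, in mouse soleus, a calf muscle. They were taken as a fixed list of 9 genes: the alpha subunits Hif1a, Epas1 and Hif3a, their partner Arnt, the ubiquitin ligase subunit Vhl, the asparaginyl hydroxylase Hif1an and the prolyl hydroxylases Egln1, Egln2 and Egln3. All 9 were measured, among 22126 features that were tested, of which 14088 were named genes. Transcripts of the 9 genes are read by 16 probes, of which 15 passed the filter (a signal well above background on 3 or more of 16 arrays). The brightest of a gene's probes stood for the gene, and the others are given beside it.

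HIF is a pair of an alpha subunit and Arnt, and it switches on genes for glycolysis, blood vessel growth and iron and oxygen handling. While oxygen is plentiful, the prolyl hydroxylases mark the alpha subunits for the ligase that contains the VHL protein, which leads to their destruction, and the hydroxylase encoded by Hif1an keeps them from their coactivators. This control acts on protein, so the RNA levels measured here do not show the amount of HIF protein or the activity of the hydroxylases. In many cell types the genes Egln1 and Egln3 are themselves HIF targets.

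RNA came from the soleus of male mice at 4 times of a protocol that brought the oxygen level down gradually to 10% in the first week and held it there in the second. There were 4 RNA samples of day 0 (6 arrays), 3 of day 3, 3 of day 7 and 4 of day 14 (1 array for each sample). The labels give the treatment of every group as hypoxia, day 0 included. Strain, age and genotype are not given in the sources used here. The design text names 4 muscles per time, and the remaining muscle of day 3 and of day 7 is not analysed here. Nothing in the labels ties an RNA sample to its own animal, so the p-values measure the spread between these samples, which may be partly technical. In whole muscle, fewer cells of a type and less RNA per cell cannot be told apart.

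The arrays lay on 2 slides, and the slide bears on every result with day 3 or day 7. Slide 1 held all day 3 and day 7 arrays with day 0 samples 1 and 2, while slide 2 held all day 14 arrays with day 0 samples 1 to 4. Slide 1 was brighter, with a 75th percentile of 203 to 271 intensity units and 48.3 to 55.3% of spots well above background, beside 49.1 to 77.0 units and 37.9 to 42.9% on slide 2. On the first principal component of 14788 features above background on all arrays (35.5% of the variance), the 2 day 0 arrays of slide 1 stood apart at -39.3 and -42.2, against -0.53 and 4.27 for the same RNA samples on slide 2. The other arrays of slide 1 lay between -19.7 and 9.37. The differences of the 9 genes from day 0 at days 3 and 7 are therefore also given without these 2 arrays. Without them day 3 and day 7 lie on another slide than day 0 and day 14, with no RNA sample on both slides. Day and slide then cannot be told apart for days 3 and 7. All 9 markers of slow fibres and all 8 of fast fibres were well above background on all 16 arrays.

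Levels are log2 intensities minus the 75th percentile of the array (relative log2 level), and differences are on the log2 scale, from a limma fit with slide as a term and the RNA sample as a block. A feature passed at a Benjamini-Hochberg adjusted p under 0.05 over all features. Levels of different probes are not set against each other, since a probe's brightness depends on its sequence.

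**Figure D1:**
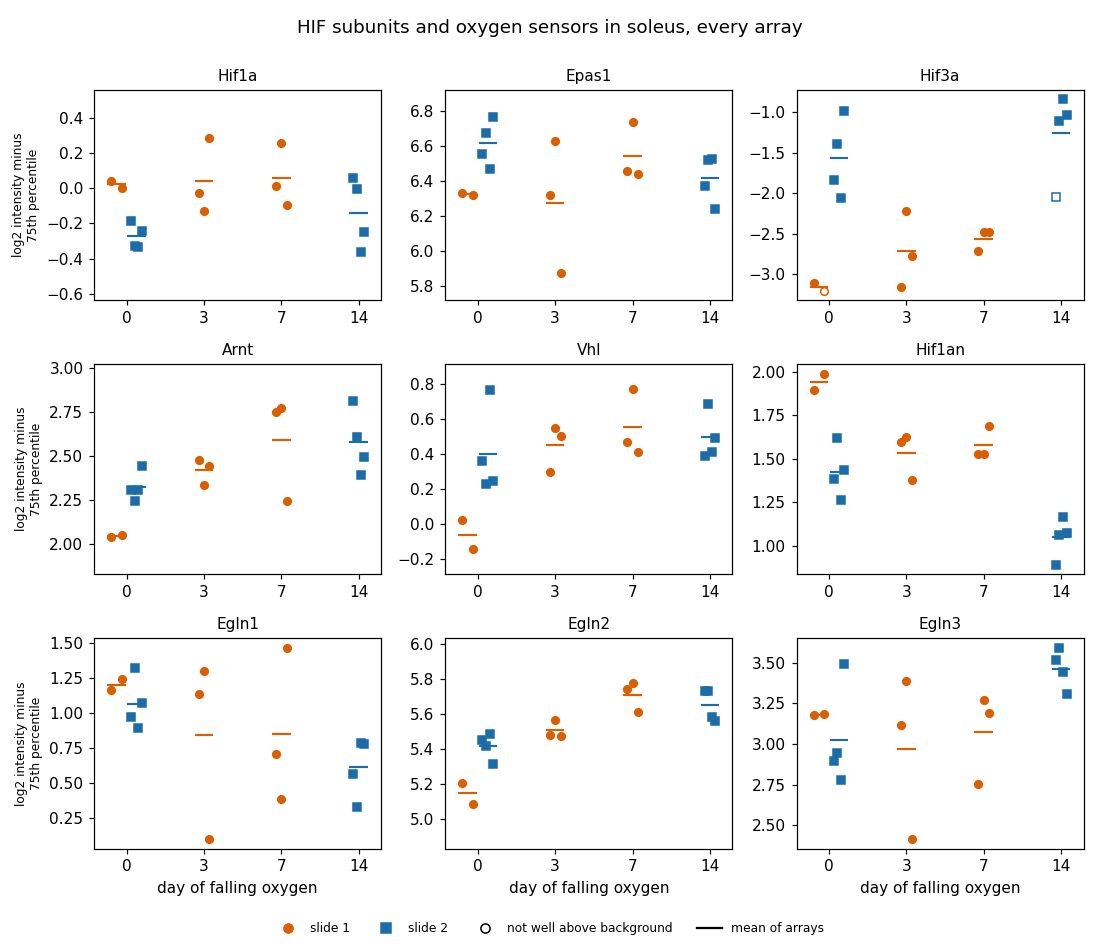
Relative log2 level (log2 intensity minus the array's 75th percentile) of each of the 9 genes on every array by day, with slide 1 as circles, slide 2 as squares, bars for the mean of the arrays of a slide and day, and open symbols for arrays where the probe was not well above background. On slide 1 the means of Egln2 and Arnt are higher at day 3 than at day 0 and highest at day 7, those of Hif1a lie close together, and Hif3a differs more between slides than between days.

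At day 7, 3 of the 9 genes were higher than at day 0 and 0 were lower: Egln2, Vhl and Arnt, by 0.53 to 0.57 on the log2 scale. In the same comparison 23.8% of all features passed, 15.6% as higher and 8.14% as lower, so the count does not set these genes apart from the rest of the array. Of the 3 calls, that of Egln2 passed under the most treatments of the slide, though not all of these can tell day from slide. A second probe of Egln2 moved the other way. At day 3 only Egln2 passed among the 9, as higher, against 6.09% of all features (2.27% higher and 3.82% lower). At day 14 against day 0 the limma test passed 0 of the 9 genes and 0.402% of all features. An unadjusted p under 0.05 was reached there by 3 of the 9 genes, beside 4563 of all 22126 features. Within slide 2 alone, limma passed 0 of the 9 genes and 0.00452% of all features at day 14, with 5 of the 9 at an unadjusted p under 0.05. Day 7 against day 3 gave 0 of 9 (1 at an unadjusted p under 0.05) against 0.678% of all features, and day 14 against day 7 gave 0 of 9 (2 at an unadjusted p under 0.05) against 2.30%. The shares of these last 3 comparisons are for the adjusted p, so the unadjusted counts cannot be set against them. The median difference of the 9 genes was 0.03 at day 3, 0.22 at day 7 and 0.13 at day 14, beside 0.06, 0.09 and 0.06 for all features. A moderated F-test over the 3 days against day 0 passed Egln2 (adjusted p = 0.0142) and Hif1an (adjusted p = 0.0339), where 17.1% of all features passed. That F-test passed 0 of the 9 without day 0 sample 1 and 0 without day 0 sample 2, and the day 7 count was 0 without day 0 sample 2.

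Some fibre markers moved on the same days. Of all features, 15.6% were higher and 8.14% lower at day 7, and 2.27% higher and 3.82% lower at day 3. Of 9 slow fibre markers 0 were higher and 2 lower at day 7: Tnni1 and Tnnc1, slow troponin subunits, at -1.05 and -0.51 (limma adjusted p = 0.00451 and 0.039). Of 8 fast fibre markers 1 was higher and 0 lower, Pvalb, a calcium buffer, by 1.65 (adjusted p = 0.0319), while Myh4, the fastest myosin heavy chain, differed by 5.16 at day 3 and 3.63 at day 7 and did not pass (adjusted p = 0.0683 and 0.113). At day 3 the slow and the fast markers each had 0 higher and 1 lower, Tnni1 and the fast myosin light chain Mylpf, at -0.87 and -0.72 (adjusted p = 0.0286 and 0.0387). With the slide 1 arrays of day 0 dropped, Tnni1 and Tnnc1 differed by 0.02 and 0.12 at day 7 (adjusted p = 0.959 and 0.62), and Pvalb was still higher, by 1.85 (adjusted p = 0.0139). In that setting 0 of the 9 slow markers were higher and 1 lower at day 7, where 7.47% of features were higher and 10.0% lower. The 8 fast markers had 1 higher and 0 lower at day 7, and the same counts at day 3, where 9.36% of features passed. Day and slide cannot be told apart in that setting. The markers named here were picked after their values were seen, and their part in the values of the 9 genes was not tested.

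**Figure D2:**
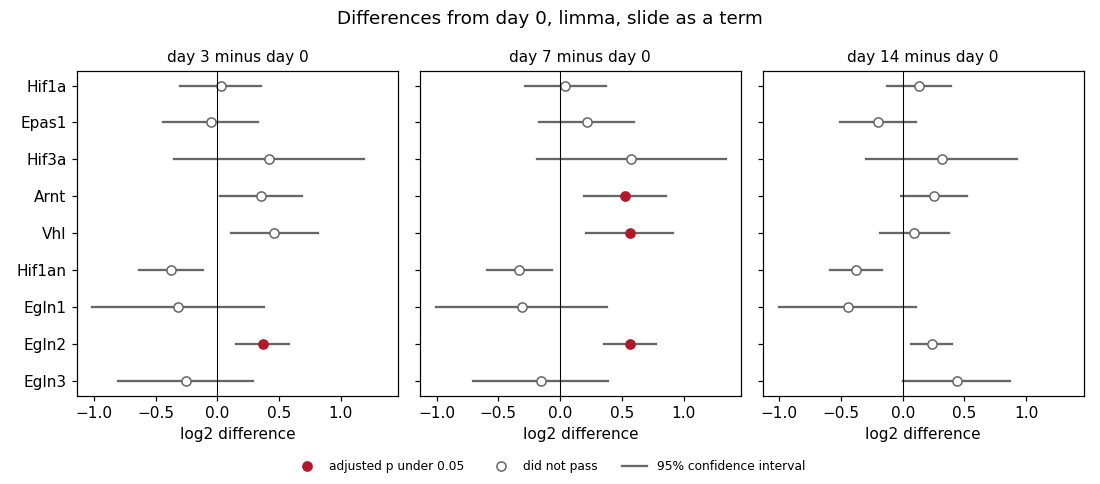
Log2 difference from day 0 at day 3, day 7 and day 14 for each of the 9 genes, as fitted by limma with slide as a term (14 RNA samples), with 95% confidence intervals and filled points for an adjusted p under 0.05. Only Egln2 passed at day 3, Arnt, Vhl and Egln2 passed at day 7, and none passed at day 14.

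Hif1a encodes the alpha subunit found in nearly all cells. Its single probe lay on slide 1 at 0.04 and 0.00 on the day 0 arrays, -0.03, -0.13 and 0.29 at day 3 and 0.01, 0.26 and -0.09 at day 7. On slide 2 it lay at 0.06, -0.00, -0.36 and -0.25 at day 14, against -0.18, -0.33, -0.33 and -0.24 at day 0. The days overlapped on both slides: of the 4 day 14 arrays 2 lay above all slide 2 day 0 arrays and 1 lay below them. The fitted differences from day 0 were 0.03 at day 3 (95% interval -0.30 to 0.35), 0.04 at day 7 (-0.28 to 0.37) and 0.13 at day 14 (-0.13 to 0.39), with limma adjusted p = 0.934, 0.871 and 0.567. When the slide 1 arrays of day 0 were dropped, they were 0.32 at day 3 and 0.33 at day 7 (limma adjusted p = 0.184 and 0.112).

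Epas1 encodes HIF-2α, an alpha subunit known for its high level in endothelium. On slide 1 the main probe of Epas1 lay at 6.33 and 6.32 at day 0, 6.32, 6.63 and 5.88 at day 3 and 6.46, 6.74 and 6.44 at day 7. On slide 2 the level was 6.37, 6.52, 6.53 and 6.24 at day 14, against 6.55, 6.67, 6.47 and 6.76 at day 0. All 3 day 7 arrays were above both day 0 arrays of their slide, while 2 of the 4 day 14 arrays were below all day 0 arrays of theirs. None of these differences passed: they were -0.05 ± 0.18 at day 3, 0.22 ± 0.18 at day 7 and -0.20 ± 0.14 at day 14 (SE, limma adjusted p = 0.883, 0.416 and 0.45). Both of its other probes, A_55_P2053988 and A_55_P2077448, gave negative differences on each of the 3 days, at -0.30 and -0.19 on day 7 (adjusted p = 0.193 and 0.468 in a fit over probes). Once the slide 1 arrays of day 0 were dropped, the main probe differed by -0.34 at day 3 and -0.07 at day 7 (adjusted p = 0.226 and 0.796). The first of the others then differed by -0.75 at day 3 and -0.84 at day 7 (adjusted p = 0.00563 and 0.00219, where 8.18% and 16.2% of probes passed). Day and slide cannot be told apart there, and this probe carries a slide step. Day 0 samples 1 and 2 lay at 1.47 and 1.31 on slide 1 and at 1.91 and 2.08 on slide 2. Endothelial markers, all 12 of which were above background on every array, summed to 194 to 227 times the 75th percentile at day 14, against 158 to 179 at day 0 on slide 2. On slide 1 the sum was 145 to 152 at day 0, 145 to 167 at day 3 and 189 to 203 at day 7. The 12 markers did not move together: at day 7 Egfl7 and Robo4 were higher by 0.67 and 0.74 (limma adjusted p = 0.00732 and 0.0219), and Pecam1 and Tie1 lower, at -0.65 and -0.95 (adjusted p = 0.012 and 0.00472). These 2 higher and 2 lower markers stand beside 15.6% of all features higher and 8.14% lower. Without the slide 1 arrays of day 0, 2 were higher and 1 lower at day 7, beside 7.47% and 10.0% of features. At day 14, 6 of the 12 differences were positive, with a median of 0.07, and Ramp2 alone passed (0.63, adjusted p = 0.0158), where 0.402% of features passed. Within slide 2 alone 0 of the 12 passed at day 14, where 0.00452% of features did. The part of endothelial cells in the Epas1 values was not tested.

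Hif3a encodes HIF-3α, an alpha subunit with forms that restrain the others. It was the dimmest of the 9 on these arrays relative to background: its main probe was well above background on 14 of the 16 arrays, a second on 10, and the last on none. On slide 1 the main probe lay at -3.11 and -3.21 at day 0, -3.16, -2.22 and -2.78 at day 3 and -2.72, -2.48 and -2.49 at day 7. On slide 2 it lay at -2.04, -1.11, -0.84 and -1.03 at day 14, against -1.83, -1.40, -2.06 and -0.99 at day 0. The slides did not overlap on any day, and the fitted step between slides, 1.57, was the largest of the 9. With slide as a term the differences were 0.42 ± 0.36 at day 3, 0.58 ± 0.36 at day 7 and 0.31 ± 0.28 at day 14, and none passed. Without the slide 1 arrays of day 0 the sign turned, to -1.15 at day 3 and -0.99 at day 7 (limma adjusted p = 0.0389 and 0.0476), in comparisons where 9.36% and 17.5% of features passed. No direction can be given for Hif3a at day 3 or day 7.

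Arnt encodes HIF-1β, the partner that each alpha subunit needs to bind DNA and that is shared with other factors of its family. On slide 1 its main probe lay at 2.04 and 2.05 at day 0, 2.48, 2.33 and 2.44 at day 3 and 2.75, 2.78 and 2.24 at day 7. The slide 2 arrays lay at 2.81, 2.61, 2.39 and 2.50 at day 14, against 2.31, 2.24, 2.31 and 2.44 at day 0. Every day 3 and day 7 array was above both day 0 arrays of slide 1, and 3 of the 4 day 14 arrays were above all 4 day 0 arrays of slide 2. Arnt was 0.53 ± 0.15 higher at day 7 (SE, n = 3 and 4 RNA samples, 1.44-fold, limma adjusted p = 0.0262), and the differences of 0.35 ± 0.15 at day 3 and 0.25 ± 0.12 at day 14 did not pass (adjusted p = 0.173 and 0.265). When the slide 1 arrays of day 0 were dropped, the difference was 0.09 at day 3 and 0.27 at day 7 (adjusted p = 0.753 and 0.203). The day 7 call held in 4 of 10 alternatives. Besides the dropped arrays it was lost on fitting slide 1 alone (0.55, adjusted p = 0.0839), with no slide term (0.37, adjusted p = 0.0738), with the series table (0.36, adjusted p = 0.069), with no filter on dim probes (0.52, adjusted p = 0.0575) and with the mean of its probes (0.13, adjusted p = 0.398). It was also lost on leaving out day 0 sample 1 or 2 or day 7 sample 1 or 2 (0.43 to 0.70 over all 14 samples left out in turn). The second probe of Arnt, A_55_P2100899, did not follow the first. It lay at -1.20, -1.30 and -0.83 at day 7, against -0.87 and -0.81 at day 0 on slide 1, a difference of -0.27 ± 0.16 that did not pass (adjusted p = 0.267 in the fit over probes). It differed by -0.45 when the slide 1 arrays of day 0 were dropped, and missed the threshold there too.

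Vhl encodes the part of the ubiquitin ligase that recognises hydroxylated HIF alpha. On slide 1 its single probe lay at 0.02 and -0.14 at day 0, 0.30, 0.55 and 0.50 at day 3 and 0.47, 0.77 and 0.41 at day 7. On slide 2 it lay at 0.39, 0.68, 0.41 and 0.49 at day 14, against 0.36, 0.23, 0.76 and 0.25 at day 0. The 6 arrays of days 3 and 7 were all above both day 0 arrays of their slide but within the range of the day 0 arrays of slide 2, apart from 1 day 7 array at 0.77. Vhl was 0.56 ± 0.16 higher at day 7 (SE, n = 3 and 4, 1.48-fold, limma adjusted p = 0.0245). At day 3 the difference was 0.46 ± 0.16 and at day 14 it was 0.09 ± 0.13, and neither passed (adjusted p = 0.101 and 0.717). Once the slide 1 arrays of day 0 were dropped, the difference was 0.05 at day 3 and 0.15 at day 7 (adjusted p = 0.885 and 0.503). The day 7 difference was 0.61 within slide 1 (adjusted p = 0.0527), 0.32 with no slide term (adjusted p = 0.175) and 0.56 with no filter on dim probes (adjusted p = 0.0546). It also missed the threshold without day 0 sample 1, day 0 sample 2 or day 7 sample 2, with a range of 0.46 to 0.63 over the 14 samples left out in turn.

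Hif1an encodes FIH, the hydroxylase that blocks the transactivation domain of HIF alpha. On slide 1 Hif1an lay at 1.90 and 1.99 at day 0, 1.60, 1.63 and 1.38 at day 3 and 1.53, 1.53 and 1.69 at day 7. Slide 2 gave 0.89, 1.06, 1.16 and 1.08 at day 14, against 1.38, 1.62, 1.27 and 1.44 at day 0. On each slide every array of a later day was below every day 0 array. The fitted difference from day 0 was of similar size on all 3 days: -0.37 ± 0.12 at day 3, -0.33 ± 0.12 at day 7 and -0.38 ± 0.10 at day 14 (SE). No single day passed (limma adjusted p = 0.0818, 0.0663 and 0.0849, unadjusted p = 0.00861, 0.0179 and 0.00178), while the F-test over the days did. All day 14 arrays lay on slide 2, so the fit with slide as a term takes the day 14 difference from slide 2. The same value within slide 2 alone, -0.38, follows from this and is no separate check. Its limma adjusted p there was 0.131, where only 1 feature of the whole array passed. The other 2 days rest on the slide 1 arrays of day 0, and without them the sign turned, to 0.11 at day 3 and 0.15 at day 7 (adjusted p = 0.615 and 0.353).

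Egln1 encodes PHD2, the prolyl hydroxylase that sets HIF-1α levels in most cells. On slide 1 Egln1 lay at 1.17 and 1.24 at day 0, 1.13, 1.30 and 0.10 at day 3 and 0.71, 0.39 and 1.47 at day 7. On slide 2 it lay at 0.57, 0.33, 0.79 and 0.78 at day 14, against 0.97, 1.32, 0.89 and 1.07 at day 0. Day 3 and day 7 each had an array above the day 0 arrays and at least 1 far below them, whereas all 4 day 14 arrays lay below all 4 day 0 arrays of slide 2. The fitted values were -0.32 ± 0.32, -0.31 ± 0.32 and -0.45 ± 0.26 at days 3, 7 and 14 (SE, limma adjusted p = 0.575, 0.529 and 0.347). The 95% intervals reach from -1.02 to 0.38 at day 3 and from -1.01 to 0.38 at day 7, and thus cover both a fall and a rise. Dropping the slide 1 arrays of day 0 gave -0.22 at day 3 and -0.21 at day 7 (adjusted p = 0.713 and 0.652).

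Egln2 encodes PHD1, a prolyl hydroxylase known in mice for its effect on muscle metabolism. Its main probe, A_55_P1960924, gave the smallest limma adjusted p of the 9 genes. On slide 1 it lay at 5.21 and 5.09 at day 0, 5.48, 5.57 and 5.47 at day 3 and 5.74, 5.78 and 5.61 at day 7. On slide 2 the arrays lay at 5.73, 5.73, 5.59 and 5.56 at day 14, against 5.45, 5.42, 5.49 and 5.32 at day 0. The 3 days of slide 1 did not overlap at all, and on slide 2 all 4 day 14 arrays lay above all 4 day 0 arrays. The difference was 0.57 ± 0.10 at day 7 (SE, n = 3 and 4, 1.48-fold, adjusted p = 0.00352) and 0.37 ± 0.10 at day 3 (n = 3 and 4, 1.29-fold, adjusted p = 0.0449). At day 14 it was 0.23 ± 0.08, which did not pass (adjusted p = 0.138). The day 7 call held at 0.56 within slide 1 (adjusted p = 0.0436, where 9.46% of features passed). It also held on leaving out each sample except day 0 sample 2. With the slide 1 arrays of day 0 dropped, the day 7 difference was 0.29 (adjusted p = 0.0385, where 17.5% of features passed). Day and slide cannot be told apart there, and the fitted slide step of this probe was 0.28. The day 3 call was lost in 11 of the 14 cases in which 1 sample was left out, and it held in 4 of 10 alternatives. The day 3 value was 0.09 with the slide 1 arrays of day 0 left out (adjusted p = 0.61) and 0.18 with no slide term (adjusted p = 0.345).

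The second Egln2 probe, A_55_P2005330, went the other way. It lay on slide 1 at 3.16 and 3.21 at day 0, 2.42, 2.72 and 2.70 at day 3 and 2.60, 2.46 and 2.67 at day 7, and both day 0 arrays were above all others. On slide 2 it lay at 2.40, 2.32, 2.44 and 2.39 at day 14, against 2.61, 2.62, 2.42 and 2.40 at day 0, and the days overlapped. In a fit over all 29459 probes, where 20.9% passed at day 7, this probe fell by 0.57 at day 7 (adjusted p = 0.00727) while the main probe rose by 0.57 (adjusted p = 0.00468). At day 3, where 4.83% of probes passed, it fell by 0.53 (adjusted p = 0.0313), and the main probe just missed the threshold in this fit (0.37, adjusted p = 0.055). Of 3497 genes with 2 or more probes, 59 (1.69%) had probes called in both directions at day 7, Egln2 among them. Without the slide 1 arrays of day 0 the second probe differed by 0.06 at day 7 (adjusted p = 0.727 in the fit over probes). The main probe then differed by 0.29 (adjusted p = 0.0461), where day and slide cannot be told apart. The mean of both probes differed by 0.00 at day 7. The 2 probes therefore give no single direction for Egln2, and which transcripts each reads is not given in the sources used here.

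A log2 ratio of 2 probes on the same array needs no scaling between arrays, but it can still differ between slides. It shows unequal change of the probes, not which of them changed. For Egln2 the ratio of the main to the second probe was 3.27 ± 0.13 at day 14, against 2.91 ± 0.12 at day 0 on slide 2 (SD, n = 4 arrays each), with no overlap (exact permutation test, 2-sided, p = 0.0286, the smallest that 4 against 4 allows, 0.0857 adjusted over the 6 probe pairs of these genes). On slide 1 the Egln2 ratio was 2.04 and 1.88 at day 0, 3.06, 2.85 and 2.77 at day 3, and 3.14, 3.32 and 2.94 at day 7. The same 2 day 0 RNA samples gave 2.84 and 2.80 on slide 2, so this ratio carries a slide step. The slide 1 ratios of days 3 and 7 overlapped those of day 0 on slide 2, which ranged from 2.80 to 3.07. Egln3 was the other pair whose days did not overlap on slide 2, at 0.85 ± 0.06 at day 14 against 0.62 ± 0.11 at day 0 (exact permutation p = 0.0286, 0.0857 adjusted). These ratios were chosen after the probes' values had been seen.

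**Figure D3:**
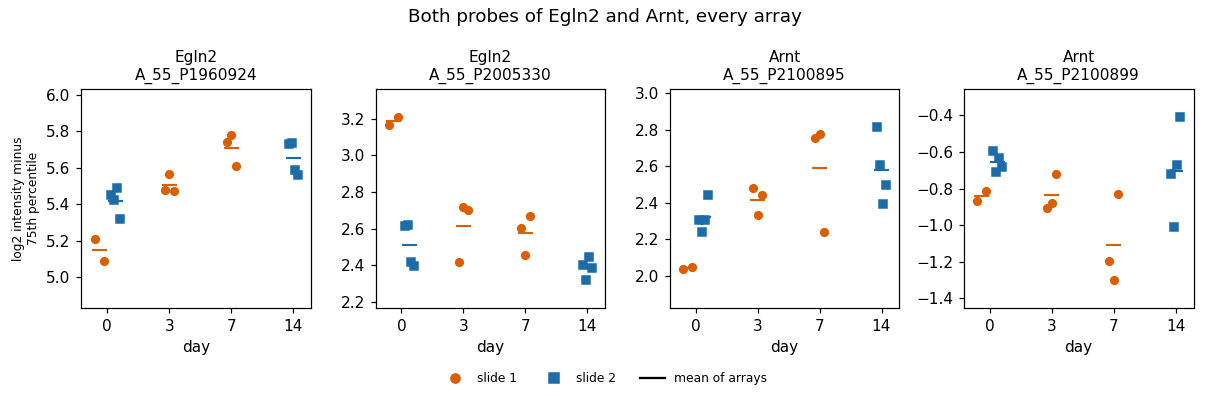
Relative log2 level of both probes of Egln2 and both probes of Arnt on every array by day, with slide 1 as circles, slide 2 as squares and bars for the mean of a slide and day. On slide 1 the first Egln2 probe is higher at day 3 and day 7 than at day 0 and the second is lower, and the second Arnt probe does not rise with the first.

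Egln3 encodes PHD3, a prolyl hydroxylase whose gene responds strongly to HIF in many cell types. On slide 1 its main probe lay at 3.18 and 3.18 at day 0, 3.12, 3.38 and 2.41 at day 3 and 2.75, 3.27 and 3.19 at day 7. Values on slide 2 were 3.52, 3.59, 3.44 and 3.31 at day 14, against 2.89, 2.94, 2.78 and 3.49 at day 0. On slide 2 the day 14 arrays were above 3 of the 4 day 0 arrays, while day 0 sample 4, at 3.49, lay among them. The difference at day 14 was 0.44 ± 0.20 (SE, n = 4 each, limma adjusted p = 0.242), and at days 3 and 7 it was -0.26 ± 0.25 and -0.16 ± 0.25 (adjusted p = 0.565 and 0.697). With day 0 taken from slide 2 alone, days 3 and 7 gave -0.06 and 0.04 (adjusted p = 0.924 and 0.912). The second probe, A_55_P1960916, differed by 0.20 at day 14 and by -0.38 at day 7, and neither passed. Day 14 minus day 7 gave 0.59 ± 0.29 for the main probe (adjusted p = 0.256).

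**Figure D4:**
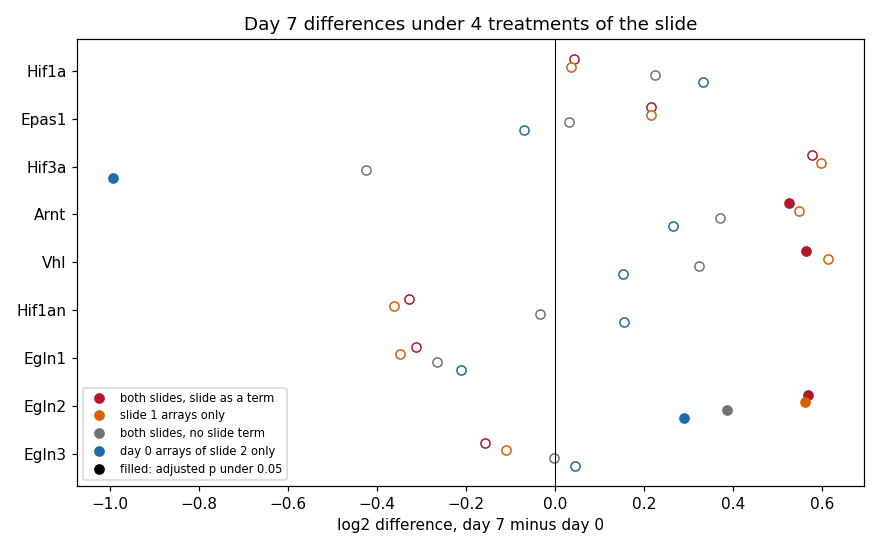
Log2 difference, day 7 minus day 0, of each of the 9 genes under 4 treatments of the slide: both slides with slide as a term, slide 1 arrays only, both slides with no slide term, and day 0 arrays of slide 2 only; filled points have an adjusted p under 0.05. Egln2 is filled in all 4, whereas Epas1, Hif3a, Hif1an and Egln3 change sign when the slide 1 arrays of day 0 are left out.

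After the fitted slide step was taken out, the days could be put in order for each gene from the mean over RNA samples. For Egln2 the day 0 mean was 5.14 ± 0.08, the day 3 mean 5.51 ± 0.05, the day 7 mean 5.71 ± 0.09 and the day 14 mean 5.37 ± 0.09 (SD, n = 4, 3, 3 and 4). No neighbours in its order (day 0, day 14, day 3, day 7) overlapped. For Vhl the order was day 0, day 14, day 3 and day 7, and of its neighbours day 14 and day 3 did not overlap, while the highest day 0 sample, at 0.35, reached into the day 3 range. For Hif1an, days 14, 3 and 7 overlapped one another at 1.53 ± 0.11, 1.53 ± 0.13 and 1.58 ± 0.09, and day 0 stood above them at 1.90 ± 0.12. Neighbouring days overlapped throughout for the other 6 genes. These orders carry the fitted slide step, which rests on the day 0 arrays, the only ones present on both slides.

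HIF is known to bind DNA at the letters ACGTG and GCGTG, and windows of 300 bases around the transcription start (250 before and 50 after) were searched for both on both strands. The windows are RefSeq's, on GRCm38.p6, and 8 of the 9 genes have one (Egln2 has 2, Epas1 none). ACGTG occurs in 19.6%, GCGTG in 32.4% and either in 43.8% of the 32851 windows in the table, and 6 of the 8 genes hold a match. The windows of the 3 genes that passed at day 7 are shown, with that of Egln3, which did not pass. Each is given 5′ to 3′ on the gene's strand, with matches in capitals, where a match on the opposite strand appears as its reverse complement and a run of 6 capitals holds an ACGTG on each strand.
Egln2, first start, chr7:27166753-27167052, minus strand, 6 matches: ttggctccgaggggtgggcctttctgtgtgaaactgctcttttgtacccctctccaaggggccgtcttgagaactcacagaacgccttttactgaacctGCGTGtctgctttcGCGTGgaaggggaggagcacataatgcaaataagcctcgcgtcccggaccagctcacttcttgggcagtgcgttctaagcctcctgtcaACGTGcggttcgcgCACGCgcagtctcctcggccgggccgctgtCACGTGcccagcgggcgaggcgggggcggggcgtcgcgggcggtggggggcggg
Egln2, second start, chr7:27165679-27165978, minus strand, 1 match: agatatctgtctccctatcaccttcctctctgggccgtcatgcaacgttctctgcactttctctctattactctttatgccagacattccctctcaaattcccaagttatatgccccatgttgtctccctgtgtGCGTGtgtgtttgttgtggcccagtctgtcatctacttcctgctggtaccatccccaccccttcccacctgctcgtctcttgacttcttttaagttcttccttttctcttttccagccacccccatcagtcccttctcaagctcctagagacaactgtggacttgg
Arnt, chr3:95434140-95434439, plus strand, 1 match: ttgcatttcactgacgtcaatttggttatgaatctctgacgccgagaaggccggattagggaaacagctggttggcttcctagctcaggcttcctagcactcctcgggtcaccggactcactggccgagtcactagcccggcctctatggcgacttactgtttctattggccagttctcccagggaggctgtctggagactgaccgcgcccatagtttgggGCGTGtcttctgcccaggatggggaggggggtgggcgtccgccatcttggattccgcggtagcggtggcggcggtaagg
Vhl, chr6:113623744-113624043, plus strand, 0 matches: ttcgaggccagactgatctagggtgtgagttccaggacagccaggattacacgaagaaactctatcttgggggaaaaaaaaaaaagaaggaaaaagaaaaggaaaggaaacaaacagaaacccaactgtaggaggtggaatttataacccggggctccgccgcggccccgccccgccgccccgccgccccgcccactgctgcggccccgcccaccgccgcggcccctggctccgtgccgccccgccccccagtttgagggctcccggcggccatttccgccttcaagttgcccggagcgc
Egln3, chr12:54203825-54204124, minus strand, 1 match: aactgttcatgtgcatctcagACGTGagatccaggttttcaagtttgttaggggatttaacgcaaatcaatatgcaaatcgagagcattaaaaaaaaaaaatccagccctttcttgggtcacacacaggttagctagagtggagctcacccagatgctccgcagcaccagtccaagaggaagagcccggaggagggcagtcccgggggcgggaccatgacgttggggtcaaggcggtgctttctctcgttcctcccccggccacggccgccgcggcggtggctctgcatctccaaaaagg
The first Egln2 window holds 3 ACGTG and 3 GCGTG, the most among the 9 windows, and Hif1a comes next with 3 matches. Vhl, which passed at day 7 like Arnt and Egln2, holds none. A match is a run of letters and not a measured binding site, and the absence of one says only that these letters are not in the window.

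The other genes around HIF were counted in 7 lists, at day 7 against day 0, beside the 15.6% of features higher and 8.14% lower. Of 9 partners of VHL in its ligase 2 rose and 0 fell: Ube2d2a, a ubiquitin-conjugating enzyme, by 0.44, and Eloc, the adaptor elongin C, by 0.41 (limma adjusted p = 0.0209 and 0.031). Rbx1, the ring subunit of the ligase, differed by 0.27 at day 14 (adjusted p = 0.123). Without the slide 1 arrays of day 0 the limma test passed 0 of these 9 at day 7, with 0 at an unadjusted p under 0.05, and Ube2d2a and Eloc differed by 0.00 and 0.04.

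Among 13 cofactors and transcription partners of HIF, 2 rose and 1 fell at day 7. The coactivators Ncoa2 and Ncoa1 rose by 0.81 ± 0.15 and 0.56 ± 0.13 (SE, n = 3 and 4, limma adjusted p = 0.00378 and 0.0088), and the pyruvate kinase gene Pkm fell by 0.60 ± 0.13 (adjusted p = 0.00775). Of 19 measured genes of HIF protein turnover, 4 rose and 2 fell. Rack1, a scaffold that promotes HIF-1α degradation in human cells, rose by 0.67 and Morf4l1, a chromatin protein, by 0.61 (adjusted p = 0.00448 and 0.00507). Fkbp8, which binds PHD2 and affects its stability, fell by 1.16 (adjusted p = 0.00603). By limma without the slide 1 arrays of day 0, 0 of the 13 cofactors passed (2 at an unadjusted p under 0.05), and 2 of the 19 turnover genes were higher and 2 lower, in a comparison where 7.47% of features were higher and 10.0% lower. The 4, named after their values were seen, were Cops5 and Morf4l1, higher, and Hsp90aa1 and Hsp90ab1, lower, though day and slide cannot be told apart there. In that setting Ncoa2 differed by 0.37, Ncoa1 by 0.05 and Rack1 by 0.22 (adjusted p = 0.0651, 0.793 and 0.18), and the sign turned for Pkm and Fkbp8 (0.07 and 0.08, adjusted p = 0.732 and 0.834). Hsp90aa1, a chaperone that shields HIF-1α, had been 0.60 higher at day 3 with the slide as a term.

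The dioxygenases other than the HIF hydroxylases, most of which also use 2-oxoglutarate, numbered 22. Of these, 3 rose and 6 fell at day 7, with a median of -0.16, beside 0.09 for all features. Kdm3a and P4ha1 are counted both here and among the direct HIF targets below. Plod1 and Plod3, the lysyl hydroxylases of collagen, fell by 1.03 ± 0.22 and 0.95 ± 0.16 (SE, limma adjusted p = 0.00646 and 0.00325), and Kdm5b, a histone demethylase, rose by 0.69 ± 0.14 (adjusted p = 0.00595). With the slide 1 arrays of day 0 left out the counts were 1 higher and 6 lower, where 7.47% of features were higher and 10.0% lower. Plod3 was then lower by 0.47 and Kdm5b higher by 0.54 (limma adjusted p = 0.0385 and 0.00995), while Plod1 differed by -0.26 and did not pass (adjusted p = 0.371). Day and slide cannot be told apart in that setting. Of 10 genes that make or remove 2-oxoglutarate, succinate or fumarate, 3 rose and 0 fell, Idh2 by 0.58 and the fumarase gene Fh1 by 0.74 (adjusted p = 0.0148 and 0.0249). Ogdh, which consumes 2-oxoglutarate, differed by -0.39 at day 3 (adjusted p = 0.0651). Leaving out the slide 1 arrays of day 0, limma passed 0 of these 10, with 1 at an unadjusted p under 0.05, and Idh2 and Fh1 differed by 0.28 and 0.39. Of 6 other genes of the bHLH-PAS family, to which the HIF subunits belong, 1 rose, Sim1, by 1.87 ± 0.49 (adjusted p = 0.0155), and by limma 0 of the 6 passed at day 7 without those arrays, with 1 at an unadjusted p under 0.05 and Sim1 at 0.13. Clock and Npas3, of the same family, did not pass in their lowest comparison (0.63 at day 3 and 1.26 for day 14 minus day 7, adjusted p = 0.0614 and 0.109). With those arrays left out, Npas3 differed by -1.13 at day 3 and by 1.35 for day 14 minus day 7 (limma adjusted p = 0.0418 and 0.0117). In these comparisons 9.36% and 18.9% of features passed, and day and slide cannot be told apart.

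Genes that HIF switches on directly served as a readout beside its subunits. Of 18 measured, 5 rose and 0 fell at day 7: Ankrd37, Pfkfb3, Bnip3, Kdm3a and Ldha, by 0.50 to 1.49 (the last 3 named after their values were seen). Of these, Pfkfb3 and Ankrd37 were the 2 that also passed with the slide 1 arrays of day 0 left out, Pfkfb3 by 1.31 and Ankrd37 by 0.48 (limma adjusted p = 0.0106 and 0.0187). In that setting 7.47% of features were higher and 10.0% lower at day 7, and day and slide cannot be told apart. Ankrd37 lay 0.91 ± 0.12 higher at day 7 than at day 3 (adjusted p = 0.0057), the only one of the 18 to pass there. At day 14, 1 of the 18 passed, again Ankrd37, and within slide 2 alone it was the only feature of the whole array to pass (1.14 ± 0.09, SE, n = 4 each, adjusted p = 0.037). At day 3, 0 of the 18 passed by limma, with 2 at an unadjusted p under 0.05. Without the slide 1 arrays of day 0 Ankrd37 was lower there (-0.43, adjusted p = 0.0417), where 9.36% of features passed and day and slide cannot be told apart. Hk2, which encodes a hexokinase, differed by 0.68 at day 14 (adjusted p = 0.0527). Red blood cell markers summed to 630 to 1275 at day 14, against 214 to 307 at day 0 on slide 2. By limma 4 of the 5 measured were higher at day 14, where 0.402% of all features passed, and 0 passed within slide 2 alone, where 0.00452% did. On slide 1 their sum was 224 to 310 at day 0, 114 to 210 at day 3 and 192 to 264 at day 7. Macrophage markers summed on slide 1 to 19.5 to 26.3 at day 0, 17.5 to 44.5 at day 3 and 12.7 to 14.5 at day 7. The part of these cells in the results was not tested.

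**Figure D5:**
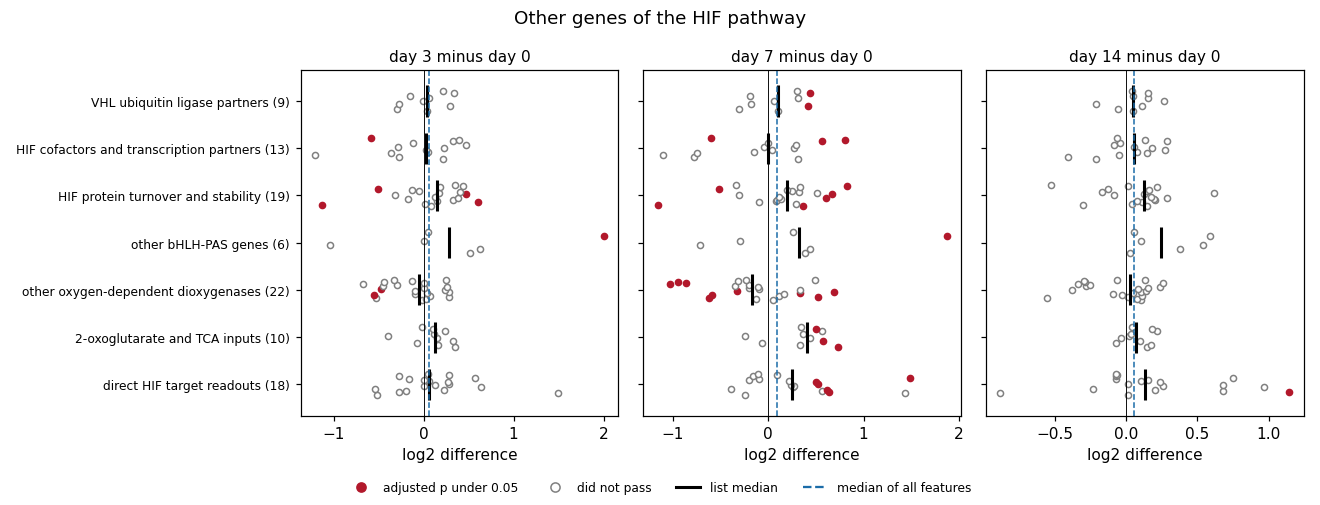
Log2 difference from day 0 of each measured gene of 7 lists around HIF at day 3, day 7 and day 14, with filled points for an adjusted p under 0.05, a black bar for the median of a list and a dashed line for the median of all features. Calls are most frequent at day 7, where 5 of 18 direct HIF targets are filled on the higher side, and at day 14 Ankrd37 alone is filled.

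The named genes most like each of the 9 over the 14 RNA samples were found by Pearson's correlation of the slide-adjusted values among 14088 named genes. Since these values share the slide step and the arrays, the correlations are a description only. Egln2 was most like Psmd1, Rnf150 and Tlk1 (0.98, 0.97 and 0.97), and Arnt most like Borcs8, Rpl14 and Rnaseh2c (0.98, 0.96 and 0.96). Vhl was most like Ctps, Rbms3 and Gpatch4 (0.94, 0.93 and 0.92). Hif1an was most like Cops8, Jmjd6 and Gpaa1 (0.95, 0.94 and 0.94), of which Jmjd6 is another 2-oxoglutarate dioxygenase and belongs to the list above. Egln1 was most like Crat and Chpt1 (0.96 and 0.93), and Egln3 most like Timm9, Fahd1 and Spinkl (0.92, 0.91 and 0.90). The alpha subunits had Bloc1s2, Tmem167b and Fam104a beside Hif1a (0.89, 0.88 and 0.86), Sdhaf2, Rab15 and Nit1 beside Epas1 (0.93, 0.92 and 0.91), and Mrtfb, Fancm and Zfp944 beside Hif3a (0.85, 0.83 and 0.82).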

How the data were processed

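Cy3-labelled RNA was hybridised to 1-colour Agilent arrays. Per the file headers, the deposited intensity is background-subtracted and detrended by Agilent Feature Extraction 11.0.1.1 (design build mm9), with no scaling between arrays. Flags of the deposited files, coded as other values, marked control, outlier and background spots. A value table deposited for the series gives intensity on a linear scale with column medians of 45.1 to 46.4, and how it was made is not given in the sources used here.

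The log2 intensity minus the array's 75th percentile was averaged over a probe's spots. Probes were named through RefSeq transcripts (27656 of 55681), 37 with missing values were left out, and 29459 well above background on at least 3 arrays were kept. A gene was read from its brightest probe on average. Days were compared with limma 3.58.1 (R 4.3.3, statmod 1.5.0), slide as a term and RNA sample as a random block (correlation 0.448, 11 residual and 2.45 prior degrees of freedom), 2-sided, with Benjamini-Hochberg adjustment over 22126 features in each comparison. The fit was tested on simulated data. Leaving out day 0 sample 1 or 2 leaves too little to estimate the correlation, so that of all arrays was used. The normexp alternative (offset 50) used the median spot signal, since the files carry no mean spot signal as had been planned.

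Of 19 pairs of samples with the same number on different days, 6 deviated together with a correlation over 0.1 (range -0.15 to 0.17), so numbers were not taken as pairs. Alternatives were no slide term, no slide 1 arrays of day 0, single slides, normexp, quantile normalization, the series table, stricter and no filters on dim probes, the mean of a gene's probes, a replicate block, and each RNA sample left out. The 9 genes, the gene lists and the rule for named genes (up to 3 per list with the smallest p, and the 3 most correlated with each of the 9) were chosen with earlier results of these data known; 1 gene that the rule names is not reported here. On the array but under the filter were Senp1, Arnt2, Ahrr, Npas1, Npas2, Arntl2, Ero1a and Mxi1. No spot was saturated, and the number of arrays limits the precision. Python 3.11.15 with SciPy 1.17.1, pandas 2.3.3 and NumPy 2.4.6 gave the summary values and exact tests, and Matplotlib 3.10.9 the plots.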

Additional observations from a re-analysis of the deposited data

Results flagged for a closer look

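Among the 4 day 14 arrays of slide 2, 1 array stood away from the other 3 for the second Egln3 probe, A_55_P1960916: the values were 2.65, 2.65, 2.65 and 2.49, and the gap of the lowest to its neighbour made up 0.959 of the whole range, above Dixon's 95% critical value for 4 samples. It was the only one of 30 groups of 4 arrays to pass this limit, and chance passes about 1 in 20.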

How the results depend on the processing

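The counts of features moved with the slide treatment, normexp, the filter on dim probes and single day 0 samples, and the cause of each change was not tested beyond what a setting itself removes. Over the 9 genes and 5 comparisons, 970 values kept their direction and side of the threshold, 35 lost and 16 gained a call with the same sign, and 45 changed sign, of which 3 also gained a call (Hif3a without the slide 1 arrays of day 0) and 1 lost it (Egln2 at day 3 with the mean of probes). Signal over background limits what the Hif3a probes can show, since none of its 3 probes was well above background on all arrays.

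Of the 9 genes, 1 passed at day 3: this became 3 with normexp, 2 with only probes bright on all arrays, and 0 with no slide term, within slide 1, with quantile normalization, with no filter and with the mean of probes. Without the slide 1 arrays of day 0 the day 3 count stayed at 1, but the gene was Hif3a, lower (-1.15), and Egln2 did not pass. At day 7 the 3 genes became 1 with no slide term, within slide 1, with no filter and with the mean of probes. They became 2 without the slide 1 arrays of day 0, Egln2 higher (0.29) and Hif3a lower (-0.99). At day 14 the 0 became 2 with no slide term, and 1 with the series table and with only probes bright on all arrays. For day 14 minus day 7 the 0 became 1 with no slide term, and 2 without the slide 1 arrays of day 0 and with normexp. Here bright means well above background. The F-test's 2 genes became 4 with only probes bright on all arrays, and 1 with no filter and with the mean of probes. Hif1an, which did not pass on any single day, passed at day 3 with normexp (-0.35) and only probes bright on all arrays (-0.37), at day 14 with no slide term (-0.57), the series table (-0.42) and only probes bright on all arrays (-0.38), and at day 7 with normexp (-0.31), quantile normalization (-0.40), the series table (-0.37) and only probes bright on all arrays (-0.32).

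Of all features, 1348 passed at day 3, against 260 with no slide term, 2072 when the slide 1 arrays of day 0 were dropped, 0 by limma within slide 1, 3491 with normexp, 2622 above background on all arrays and 403 with no filter. At day 7 the 5261 became 3283 with no slide term and 2094 within slide 1. At day 14 the 89 became 3101 with no slide term, 35 when dropping the slide 1 arrays of day 0, 1 within slide 2, 23 with normexp, 217 with quantile normalization, 674 with the series table, 418 with only probes bright on all arrays and 17 with no filter. For day 7 minus day 3 the 150 became 62 with no slide term, 0 within slide 1, 729 with normexp, 436 above background on all arrays and 44 with no filter. For day 14 minus day 7 the 508 became 2578 with no slide term, 4175 when dropping the slide 1 arrays of day 0, 4156 with normexp, 807 with the series table, 1658 above background on all arrays and 285 with no filter. The split at day 7 was 1652 higher and 2220 lower without the slide 1 arrays of day 0, against 3459 and 1802. With normexp it was 1657 and 1834 at day 3, against 503 and 845, and 1404 and 2752 for day 14 minus day 7, against 247 and 261. At day 14 it was 112 and 105 with quantile normalization and 327 and 347 with the series table, against 65 and 24.

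The replicate block, with sample numbers that do not pair the samples, left 1 of the 9 genes at day 3 and 3 at day 7, gave 1339 and 5025 features there, 21 at day 14, 44 for day 7 minus day 3 and 1145 for day 14 minus day 7, and 1 gene in the F-test.

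Signs turned for Hif1a at day 3 with normexp (-0.013), the series table (-0.017) and the replicate block (-0.000885), for Hif3a at day 3 and day 7 with no slide term (-0.58 and -0.42) and without the slide 1 arrays of day 0 (-1.15 and -0.99), and for Hif1an (0.11 and 0.15), Epas1 at day 7 (-0.070) and Egln3 at day 7 (0.044) without those arrays. With the mean of probes Egln2 was -0.080 at day 3 and 0.052 for day 14 minus day 7, Epas1 -0.090 at day 7 and Arnt -0.051 for day 7 minus day 3. Vhl at day 14 was -0.022 with normexp and -0.012 with the series table, and Egln3 for day 7 minus day 3 was -0.024 with the series table. For day 14 minus day 7, Hif1a was -0.20 with no slide term and without those arrays, -0.022 with normexp and -0.029 with the series table, and Hif3a was 1.31, 1.31 and 0.10 in the fit with no slide term, without those arrays and with the series table.

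Leaving out 1 RNA sample at a time gave 0 to 1 of the 9 genes at day 3, 0 to 3 at day 7, 0 to 0 in the other 3 comparisons and 0 to 3 in the F-test, and 10 to 1711, 103 to 5802, 3 to 219, 28 to 270 and 4 to 1209 features at day 3, day 7, day 14, day 7 minus day 3 and day 14 minus day 7. The lowest counts at day 3, at day 7 and for day 14 minus day 7 came without day 0 sample 2, at day 14 without day 0 sample 1, and for day 7 minus day 3 without day 3 sample 1. Signs turned at day 3 for Hif1a (-0.10 to 0.11), Epas1 (-0.23 to 0.14), Egln1 (-0.55 to 0.051) and Egln3 (-0.46 to 0.023), and at day 7 for Hif1a (-0.058 to 0.12) and Egln3 (-0.26 to 0.0017). They turned for day 7 minus day 3 in Hif1a (-0.084 to 0.14), Hif3a (-0.062 to 0.41), Vhl (-0.0076 to 0.17), Hif1an (-0.031 to 0.091), Egln1 (-0.36 to 0.24) and Egln3 (-0.18 to 0.31), and for day 14 minus day 7 in Hif1an (-0.088 to 0.0046) and Egln1 (-0.37 to 0.17). The median over all features was -0.04 at day 3 without the slide 1 arrays of day 0, against 0.06, and 0.17 at day 14 and 0.13 for day 14 minus day 7 with no filter, against 0.06 and -0.04. A fit of slide 1 alone has no day 14, and a fit of slide 2 alone no day 3 or day 7, so those could not be fitted.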
